A study of Mus musculus with 6 samples.

Results

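The cytosolic ribosome is built from ribosomal RNA and from the proteins encoded by the ribosomal protein genes, whose symbols begin with Rpl for the large subunit and Rps for the small subunit. Of the 52636 genes in the deposited count table, 81 were annotated as protein coding and carried a symbol of this family. This rule used no expression values, but it was set with earlier results of these data known. The 81 members were 50 genes of the large subunit, including its stalk, and 31 of the small subunit, spread over 19 chromosomes. A filter on low counts kept 78 of them and 16869 genes in all. Rpl10l, Rpl39l and Rpl3l did not pass it.

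RNA was sequenced from cells of the embryonic mouse forebrain at E12.5, in the period when the cortex begins to form neurons, sorted for the surface protein Prominin1 as radial glia, the progenitors of the cerebral cortex. The SmadNes embryos were Smad1wt/fl and Smad5wt/fl with 1 copy of the transgene (Nestin:Cre+/0), and their control littermates were Smad1wt/fl and Smad5wt/fl without it (Nestin:Cre0/0). Both groups were thus heterozygous for floxed Smad1 and floxed Smad5, genes of transcription factors that relay bone morphogenetic protein signals. They differed by Nestin:Cre, which is active in neural progenitors. All embryos had a mixed CD1, 129/ola and C57BL6 background. Each group held 3 pools of sorted cells, named SF3, SF4 and SF5_6 in both. The number of embryos per pool is not stated in the labels, so p-values reflect the spread from pool to pool. The comparison asks which transcripts differ in sorted progenitors when Cre is present together with these floxed alleles.

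Ribosomal protein genes are among the most highly expressed genes of dividing cells. Most of their products are needed in equal numbers, so most of their transcripts are usually kept at similar levels. Many of their mRNAs begin with a cytosine followed by a run of pyrimidines, the 5′ terminal oligopyrimidine (TOP) motif, through which the growth-regulating kinase mTOR controls their translation. In neural progenitors the demand for ribosomes is high, and free RPL5 and RPL11, left over when ribosome assembly is disturbed, bind MDM2 and thereby stabilise p53.

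The start of the transcript is a feature shared by many members that was not used to choose them. RefSeq promoter windows (build GRCm38.p6) were matched to 61 of the 81 genes. The motif searched was a C followed by at least 4 bases that were each C or T, on the strand of the gene. It lay exactly at the annotated start in 12 of the 61 windows (19.67%), against 364 of 16289 windows of protein-coding genes (2.23%). When the run could lie anywhere within the stretch from 5 bases before the start to 10 bases from it, 27 members had it (44.26%), against 18.78% of all windows. The letters CGGAAGT, an ETS-type motif searched on both strands of the 300 bases, were found in 20 member windows (32.79%) and in 9.04% of all windows. The letters CACGTG, an E-box, were found in 5 (8.2%), against 8.12% of all windows. A match is a description of these letters and not evidence of a site in use. The sequences below run from 25 bases before the annotated start to 15 bases from it, 5′ to 3′ on the strand of the gene. Capitals mark the first such run from 5 bases before the start onwards. In Rpl39 a later run also meets the rule and is left in lower case. They show a long run (Rps10, Rps6, Rpl28 and Rpl38), a paralogue pair with a longer and a shorter run (Rps27 and Rps27l), and the X-linked genes Rps4x, with no run in this window, and Rpl39, the member with the highest log2 difference below.
Rps6, chr4:86857353-86857392, minus strand: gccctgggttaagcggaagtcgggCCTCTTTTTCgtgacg
Rpl38, chr11:114668555-114668594, plus strand: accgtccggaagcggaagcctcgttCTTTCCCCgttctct
Rpl28, chr7:4792940-4792979, plus strand: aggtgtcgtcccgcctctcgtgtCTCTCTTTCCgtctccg
Rps10, chr17:27635230-27635269, minus strand: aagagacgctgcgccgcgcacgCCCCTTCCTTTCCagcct
Rps27, chr3:90213634-90213673, minus strand: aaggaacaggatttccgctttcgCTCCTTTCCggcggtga
Rps27l, chr9:66946061-66946100, plus strand: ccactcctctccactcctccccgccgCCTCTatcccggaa
Rps4x, chrX:102189377-102189416, minus strand: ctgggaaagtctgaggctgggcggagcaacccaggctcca
Rpl39, chrX:37085208-37085247, minus strand: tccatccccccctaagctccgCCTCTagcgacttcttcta

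Smad1 and Smad5, the genes targeted by Cre, were both higher in every library labelled SmadNes. Smad5 had 388, 411 and 373 CPM (counts per 1e+06 of the TMM-scaled library total) in the SF3, SF4 and SF5_6 pools of SmadNes, against 290, 300 and 287 CPM in those of control. Smad1 had 86.9, 92.9 and 85.7 CPM in SmadNes, against 72.7, 77.8 and 76.1 CPM in control. These are counts over the whole gene, inside and outside the floxed part, so they are no check of the deletion, and the directions given here rest on the labels. The libraries held between 32997423 and 40744672 expected counts. Libraries of the same pool name deviated together across all genes (correlations of 0.590, 0.748 and 0.805 for SF3, SF4 and SF5_6), so results are also given with the pool name as a block. Prom1, the sorted marker, averaged 124 ± 11.97 CPM in SmadNes and 120 ± 11.8 CPM in control (SD, n = 3 each). Markers of neurons were abundant in the sorted cells as well. The summed level of 15 cortical neuron genes was 5464 to 6978 CPM in SmadNes and 5543 to 7844 CPM in control, and that of 14 radial glia genes was 2483 to 2962 CPM in SmadNes and 2302 to 2875 CPM in control.

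The ribosomal protein genes were slightly and broadly higher in SmadNes, and no single gene among them passed the test. Together the 81 genes held 2.54%, 2.49% and 2.57% of all counts in the SF3, SF4 and SF5_6 libraries of SmadNes, against 2.446%, 2.450% and 2.466% in those of control. Every SmadNes library lay above every control library. The mean share was 2.53 ± 0.0387% in SmadNes and 2.45 ± 0.0107% in control (SD, n = 3 each), a difference of 0.0770 percentage points. The large subunit genes held 1.51 ± 0.0193% in SmadNes and 1.46 ± 0.00399% in control, and the small subunit genes 1.02 ± 0.0203% in SmadNes and 0.989 ± 0.0141% in control (SD, n = 3 each). No test was made on these shares, since they are sums over a chosen list. In such bulk libraries a change in the makeup of the sorted cells and a change in RNA per cell cannot be told apart.

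**Figure D1:**
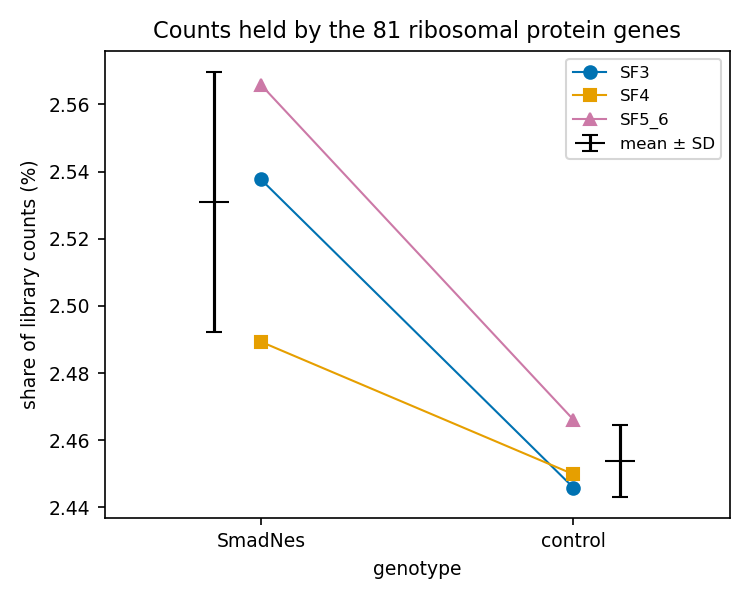
Share of each library's counts held by the 81 ribosomal protein genes, in percent, for SmadNes (left) and control (right), with lines joining libraries of the same pool name and black bars for the mean ± SD of 3 libraries. The axis does not start at 0, and the 3 SmadNes libraries, at 2.49% to 2.57%, lie above the 3 control libraries, at 2.446% to 2.466%.

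With edgeR's quasi-likelihood test, 0 of the 78 genes were called at an adjusted p below 0.05, against 0% of the 16869 genes tested. At an unadjusted p below 0.05, 3 members were higher in SmadNes (3.85%) and 0 lower, against 0.48% of all genes higher and 0.569% lower. DESeq2 and limma-voom also called 0 members, against 0.0415% and 0.00593% of all genes. Each had 3 members higher in SmadNes at an unadjusted p below 0.05, against 0.267% of all genes in DESeq2 and 0.51% in limma-voom. With the pool name as a block, edgeR again called 0 members, against 0.0237% of all genes, and 14 members (17.9%) were higher and 0 lower at an unadjusted p below 0.05, against 2.78% of all genes higher and 3.45% lower. The smallest adjusted p of a member was 0.581 in that edgeR fit, for Rpl30. With the same block, DESeq2 and limma-voom also called 0 members, against 0.0771% and 0.0474% of all genes. At an unadjusted p below 0.05, DESeq2 then had 5 members higher (6.41%), against 0.753% of all genes. In limma-voom 18 members (23.1%) were higher, against 2.92% of all genes. Both had 0 members lower, against 1.43% of all genes in DESeq2 and 3.63% in limma-voom. Small changes were seldom called by these fits. Of genes changed 1.1-fold in simulated counts, edgeR called 0% without the block and 2.04% with it. The members' estimates reached at most 1.095-fold, so the absence of calls does not exclude differences of this size. The 95% intervals of the log2 differences, taken without the block, reached at most 0.33 upwards (Rpl34).

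What the members shared was the sign of small differences. The log2 difference, SmadNes minus control, was above 0 for 72 of 78 members (92.3%), against 49.8% of all genes tested and 52.1% of the 6063 other genes whose mean lay in the members' range of 33.6 to 785 CPM. The median over the members was 0.051, or 1.04-fold, with quartiles of 0.033 and 0.078. The median over all genes tested was -0.00038 and that over the other genes of the same range 0.0029. Both subunits shared this. The 47 tested large subunit genes had a median of 0.055, with 43 above 0, and the 31 small subunit genes had a median of 0.042, with 29 above 0. There were 6 members below 0. They included Rps29 at -0.015, Rps27l at -0.012, Rpl29 at -0.011 and Rpl36 at -0.0055, each within its own SE of 0.

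**Figure D2:**
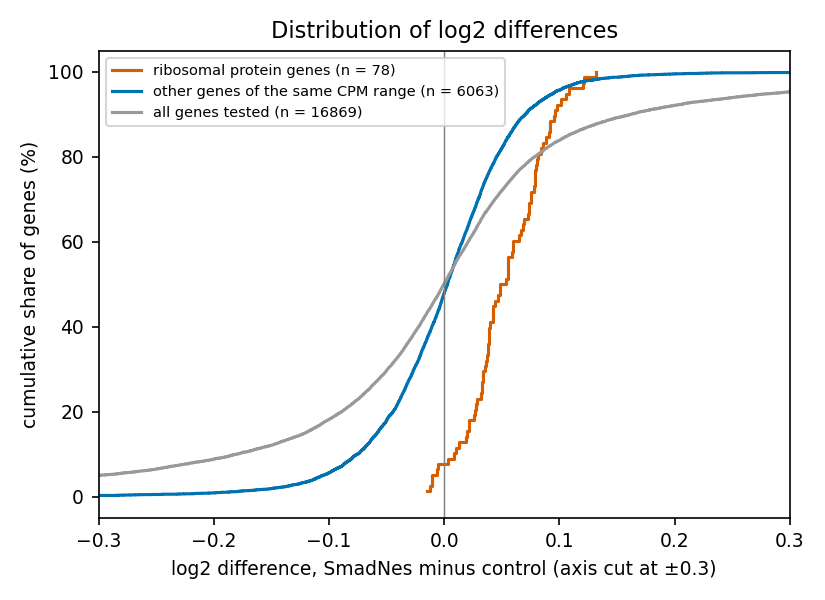
Cumulative share of genes (%) against the log2 difference, SmadNes minus control, for the 78 ribosomal protein genes, the 6063 other genes of the same CPM range and all 16869 genes tested. The curve of the ribosomal protein genes is shifted to the right of 0 and is narrow, running from -0.015 to 0.13.

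In 28 of the 78 members (35.9%) every SmadNes library lay above every control library, against 2.39% of all genes tested, and in 0 members did every SmadNes library lie below every control library, against 2.38%. These were 16 large subunit and 12 small subunit genes. When counts were scaled by library total alone, 14 members had their groups apart in this way, against 1.78% of all genes, and the median over the members was 0.040. Compared within pairs of the same pool name, 38 members (48.7%) were higher in SmadNes in all 3 pairs, against 13.8% of all genes, and 0 were lower in all 3, against 14.3%. The members' median was 0.062 in the SF3 pair, with 71 genes above 0, 0.040 in the SF4 pair, with 62 above 0, and 0.051 in the SF5_6 pair, with 55 above 0. The SF5_6 pair had the widest spread, from -0.14 to 0.25. Without the control SF5_6 library the median was 0.032 and 59 members were above 0, and without the SmadNes SF3 library the median was 0.039 and 59 members were above 0.

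**Figure D3:**
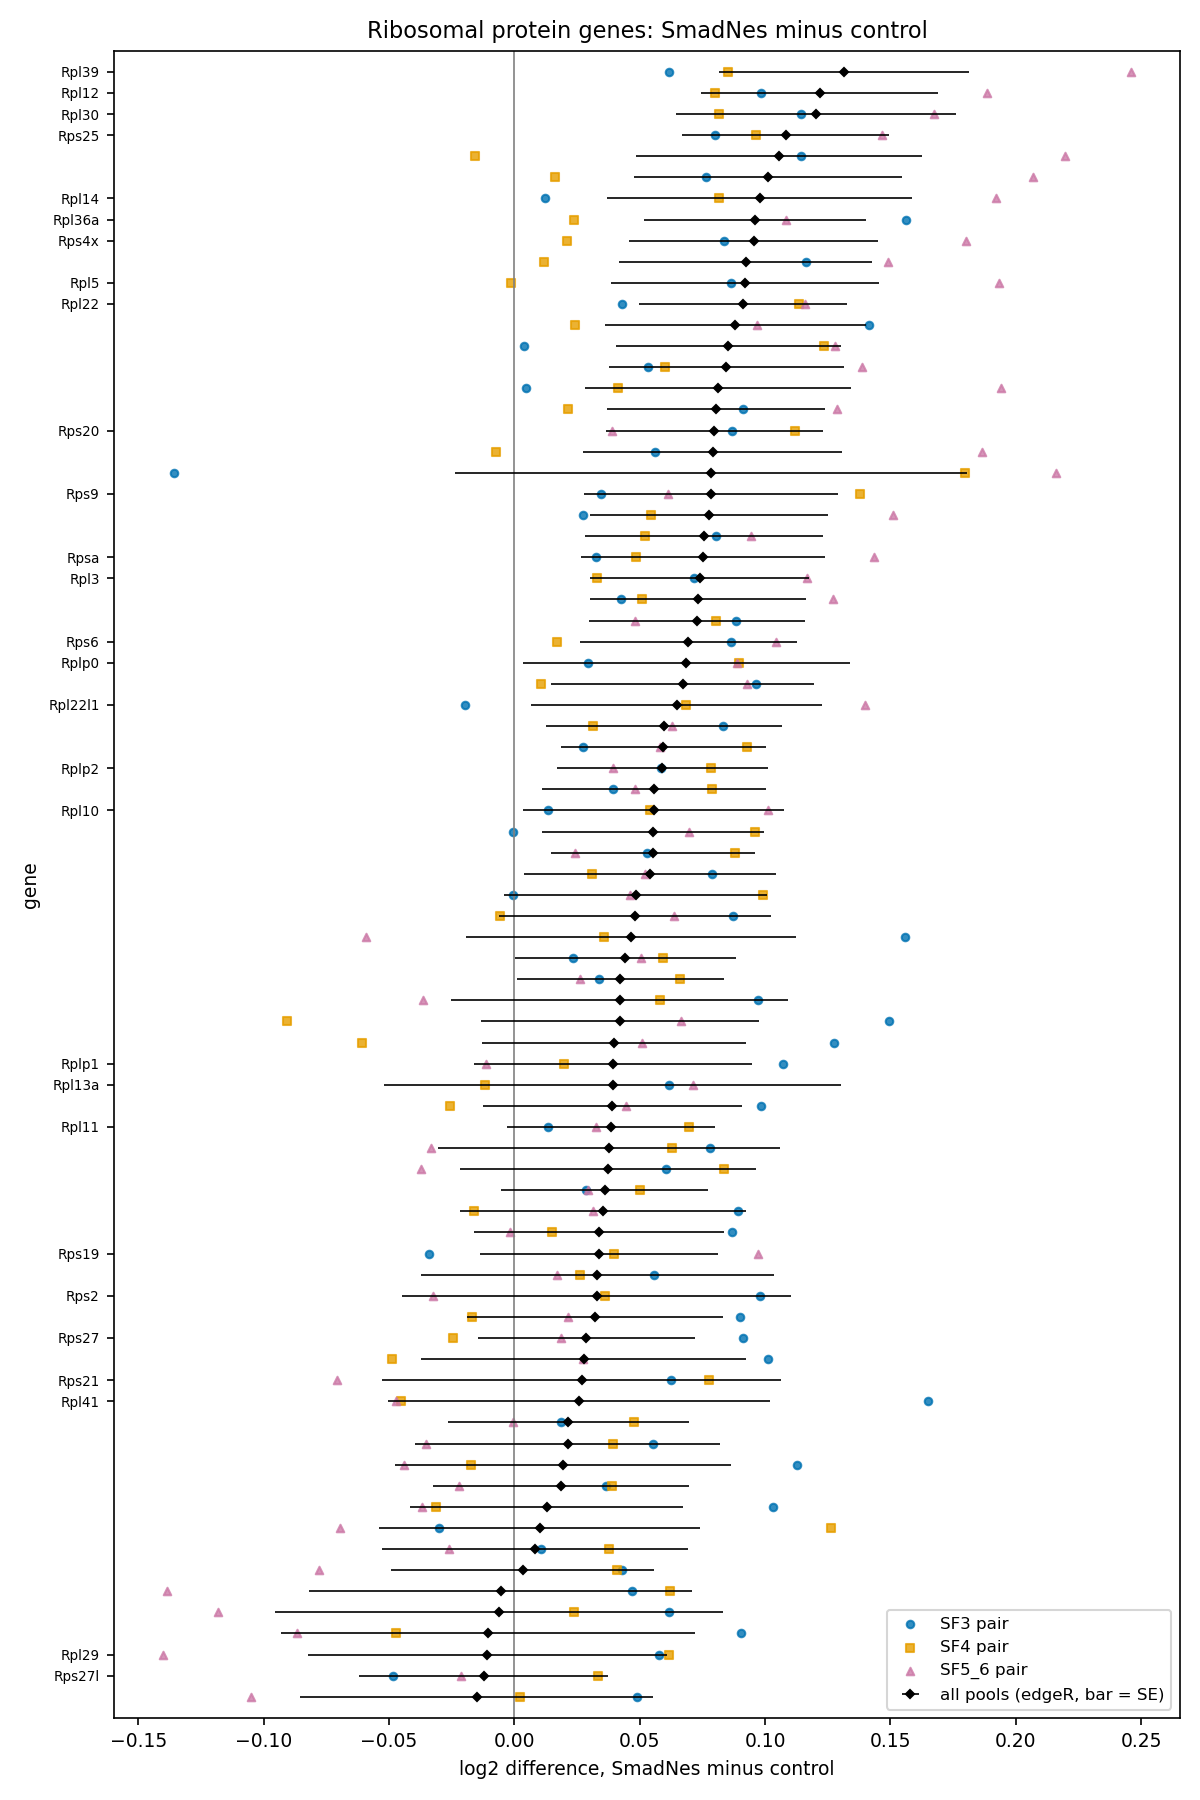
Log2 difference, SmadNes minus control, of each of the 78 tested ribosomal protein genes, ordered by the edgeR estimate over all pools (black diamonds, with bars for the SE), with the difference within each pair of the same pool name as coloured symbols and the names of some of the genes described in the text. Nearly all diamonds lie right of 0, and the symbols of the SF5_6 pair lie furthest out at both ends.

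The 6 members with the smallest p without the block, among those with the same sign in all 3 pairs, are described next. All were higher in SmadNes by this choice, since no member was lower in all 3 pairs. Choosing by a small p also favours groups that lie apart, so their separation adds no support. Rpl39 (chrX:37082520-37085402, minus strand, GRCm38), a small protein of the large subunit's exit tunnel, had 150, 151 and 160 CPM in the SF3, SF4 and SF5_6 pools of SmadNes, against 144, 142 and 135 CPM in those of control. The groups did not overlap, and the pools named SF5_6 were furthest apart. The log2 difference was 0.13 ± 0.050 (SE), at an unadjusted p of 0.0371 and an adjusted p of 0.999987 in edgeR. Rps25 (chr9:44407139-44410427, plus strand), a protein of the small subunit's head needed for initiation at some viral internal entry sites, had 238, 240 and 248 CPM in SmadNes, against 225.1, 224 and 224 CPM in control. Its control libraries were nearly equal and lay below every SmadNes library. Its log2 difference was 0.11 ± 0.041 (SE; unadjusted p = 0.0378, adjusted p = 0.999987, edgeR). Rpl12 (chr2:32961559-32965345, plus strand), at the base of the stalk, had 347, 344 and 346 CPM in SmadNes, against 324, 325 and 303 CPM in control. Here the SmadNes libraries were nearly equal and the control SF5_6 library was the low one, with a log2 difference of 0.12 ± 0.047 (SE; unadjusted p = 0.0401, adjusted p = 0.999987, edgeR). These values were taken without the block. With the block, the unadjusted p in edgeR was 0.0158 for Rpl39, 0.0120 for Rps25 and 0.00854 for Rpl12. The adjusted p was then 0.670, 0.612 and 0.582.

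The other 3 showed the same pattern at an unadjusted p above 0.05 in the fit without the block. With the block, the unadjusted p in edgeR was 0.0296 for Rpl22, 0.0371 for Rpl36a and 0.00816 for Rpl30. The adjusted p was then 0.749, 0.771 and 0.581. Rpl22 (chr4:152325742-152334071, plus strand) had 187, 195 and 193 CPM in SmadNes, against 181, 180 and 178 CPM in control. Rpl36a (chrX:134585654-134588062, plus strand) had 131, 127 and 129 CPM in SmadNes, against 118, 125 and 120 CPM in control. Rpl30 (chr15:34440505-34443640, minus strand) had 169, 174 and 165 CPM in SmadNes, against 157, 165 and 147 CPM in control. The lowest SmadNes library lay above the highest control library in all 3 genes, for Rpl30 only narrowly. Without the block, their log2 differences were 0.091 ± 0.041 for Rpl22, 0.096 ± 0.044 for Rpl36a and 0.12 ± 0.056 for Rpl30 (SE). Each had an adjusted p of 0.999987 in that edgeR fit. No member was lower in SmadNes in all 3 pairs.

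**Figure D4:**
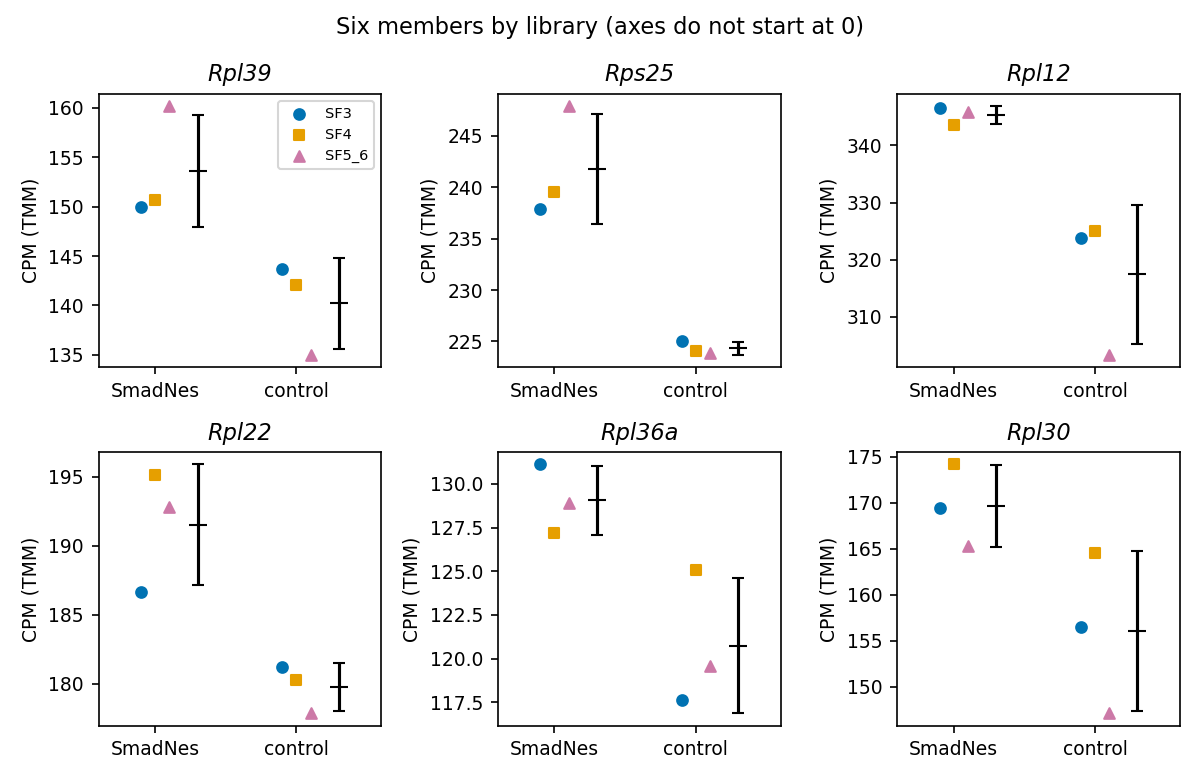
CPM after TMM scaling of Rpl39, Rps25, Rpl12, Rpl22, Rpl36a and Rpl30 in each library, SmadNes left and control right, with symbols for the pool names and bars for the mean ± SD of 3 libraries. The axes do not start at 0. In each panel the 3 SmadNes libraries lie above the 3 control libraries, in genes that were chosen by their small p.

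The stalk of the large subunit recruits translation factors and is formed by RPLP0 with copies of RPLP1 and RPLP2, next to RPL12. Rplp0 had 712, 718 and 661 CPM in SmadNes, against 698, 675 and 621 CPM in control. It was higher in SmadNes in every pair, and the groups overlapped, with both SF5_6 libraries low. Rplp1 averaged 313 ± 15.6 CPM in SmadNes and 305 ± 9.50 CPM in control, and Rplp2 averaged 260 ± 5.86 CPM in SmadNes and 249.7 ± 2.43 CPM in control (SD, n = 3 each). Of these, the groups of Rplp2 did not overlap. RPL5 and RPL11 travel with the 5S ribosomal RNA. Rpl5 had 551, 534 and 559 CPM in SmadNes, against 519, 534 and 489 CPM in control, nearly equal in the SF4 pair. Rpl11 had 332, 332 and 330.2 CPM in SmadNes, against 329, 317 and 323 CPM in control, so that every SmadNes library lay narrowly above every control library. Their log2 differences were 0.092 ± 0.053 for Rpl5 and 0.038 ± 0.042 for Rpl11 (SE), and neither passed the test.

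On the small subunit, RPS6 is phosphorylated downstream of mTOR. Rps6 had 444, 434 and 446 CPM in SmadNes, against 418, 429 and 415 CPM in control. Rpsa, whose product also acts as a laminin receptor, was the member with the highest CPM, at 783, 803 and 832 CPM in SmadNes, against 765, 777 and 753 CPM in control. In both genes the groups did not overlap, and the log2 differences were 0.069 ± 0.043 for Rps6 and 0.075 ± 0.049 for Rpsa (SE), which did not pass the test. Rps19, the gene most often mutated in Diamond-Blackfan anaemia in humans, had 242, 249.6 and 246 CPM in SmadNes, against 248, 243 and 230.0 CPM in control. Its SF3 pair ran the other way from the SF4 and SF5_6 pairs.

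Several members have a paralogue, and levels between genes are compared here per kilobase of the principal transcript. Rpl22l1, which can take the place of Rpl22 in the ribosome, made up 17.8%, 17.4% and 18.9% of the sum of both genes per kilobase in SmadNes, against 18.5%, 17.9% and 18.7% in control. Rps27l, a p53-responsive gene, made up 10.3%, 11.2% and 10.8% of its sum with Rps27 in SmadNes, against 11.3%, 10.8% and 11.1% in control. The groups overlapped in both pairs of genes. Rpl39l had 1, 2 and 0 counts in SmadNes, against 2, 1 and 2 counts in control, while Rpl39 had between 4597 and 5726 in each library. Rpl3l and Rpl10l, genes of muscle and of testis, each had 1 count in the SmadNes SF5_6 library and 0 in the other 5. At this depth a count of 0 allows up to 0.0909 CPM, and no difference in these 3 genes was detectable. Their partners were abundant: Rpl3 averaged 559 ± 8.26 CPM in SmadNes and 531 ± 7.81 CPM in control, and Rpl10 averaged 470.3 ± 10.4 CPM in SmadNes and 452 ± 19.9 CPM in control (SD, n = 3 each). Rps4l was annotated as a pseudogene and is not a member, and Rps4x had 558, 537 and 577 CPM in SmadNes, against 527, 530 and 509 CPM in control.

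Per kilobase, the tested members spanned an 11.3-fold range, from 67.3 CPM per kb for Rps27l to 762 CPM per kb for Rpl41, with a median of 420.0 and quartiles of 304 and 518. The highest after Rpl41 were Rps2 at 684 and Rps9 at 668 CPM per kb. The lowest after Rps27l were Rps20 at 72.1 and Rpl22l1 at 87.1 CPM per kb. These ends depend on the transcript chosen for the length: Rps20 had a principal transcript of 3706 bases, and with the longest principal transcript Rps15a was lowest, at 58.9 CPM per kb, and Rpl23a highest, at 654. Within a group the members varied little. The median coefficient of variation over 3 libraries was 3.51% in SmadNes and 2.87% in control, against 9.92% in SmadNes and 10.3% in control over all genes, and 5.69% in SmadNes and 5.71% in control over the other genes of the same CPM range. The most variable member in control was Rpl34 (14.2%).

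Some members differed between pool names. Between the SF5_6 pools and the SF3 and SF4 pools, with genotype in the model, edgeR called 13 of 78 members (16.7%) at an adjusted p below 0.05, against 32.5% of all genes tested and 40.6% of the other genes of the same CPM range, so the members' share was below the background. Of these, 12 were lower in SF5_6 after TMM scaling, against 15.6% of all genes, and 1 was higher, against 16.8%. Rpl13a, whose product is known for silencing inflammatory mRNAs in human macrophages, had 533 CPM in SmadNes SF5_6 and 507 CPM in control SF5_6, against 620 and 597 CPM in the SF3 and SF4 pools of SmadNes and 594 and 602 CPM in those of control. Both SF5_6 libraries were below the other 4. It fell by 0.21 on the log2 scale (SE 0.037, adjusted p = 0.00281, edgeR). Rps21 fell by 0.17 (SE 0.044, adjusted p = 0.0168, edgeR). Other genes that fell included Rpl15, Rpl27, Rpl28, Rplp0, Rps26 and Rps29. Rps2, whose product lines the mRNA entry tunnel, rose by 0.12 (SE 0.039, adjusted p = 0.0488, edgeR). It had 718, 642 and 712 CPM in the SF3, SF4 and SF5_6 pools of SmadNes, against 671, 626 and 728 CPM in control. Its pseudogene Rps2-ps10 had 64.2, 144 and 84.2 CPM by library total in SmadNes, against 64.1, 148 and 39.1 CPM in control. Both SF4 libraries were lowest in Rps2 and highest in the pseudogene. The part of reads split between gene and pseudogene was not tested. Rpl29, at 0.12 (SE 0.049), and Rpl14, at 0.093 (SE 0.043), had values near that of Rps2 and did not pass. Their adjusted p-values were 0.0889 and 0.139 in edgeR.

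The count of members called between pool names was not stable. It was 2 without the SmadNes SF5_6 library (against 21.9% of all genes called), 3 without SmadNes SF4 (22.8%) and 7 without SmadNes SF3 (31.1%). It was 8 without control SF5_6 (18.5%), 8 without control SF4 (31%) and 17 without control SF3 (27.8%). When counts were scaled by library total, 6 members were called, against 34.1% of all genes. The labels do not say what the names stand for. Markers of other cells moved with them: on the log2 scale, SF5_6 against SF3 and SF4, summed levels differed by 1.87 for erythroid genes, 1.32 for ventral forebrain genes, 1.05 for mesenchymal genes, 0.34 for microglial genes, 0.25 for endothelial genes and 0.20 for radial glia genes. They differed by -0.46 for intermediate progenitor genes, -0.36 for cortical neuron genes and -0.31 for Cajal-Retzius genes. Their part in the members' values was not tested.

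Base composition also went with the differences. Across the 78 members, which all share the same 6 libraries, the log2 difference of SmadNes from control and the GC content of the principal transcript had a Pearson r of -0.40 and a Spearman rho of -0.43, against -0.13 and -0.22 across 16829 genes. The 26 members of lowest GC content (40.58% to 49.46%) had a median log2 difference of 0.078, the middle 26 of 0.045 and the 26 of highest GC content (53.8% to 60.84%) of 0.038. In the SF5_6 pair the medians were 0.12, 0.057 and 0.010 from low to high GC content. In the SF3 pair they were 0.070, 0.059 and 0.069, and in the SF4 pair 0.040, 0.037 and 0.044. Between pool names the difference of SF5_6 from SF3 and SF4 had an r of -0.27 and a rho of -0.32 with GC content over the same 78 genes. The part of base composition in the genotype difference was not tested. All 3 groups of members had a median above 0.

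Members with and without the start motif had similar values. The 12 genes with a pyrimidine run exactly at the annotated start were all above 0, with a median log2 difference of 0.048, and the 46 tested genes with a window and no such run had a median of 0.051, with 44 above 0. Of the sequences printed above, Rps6, Rpl38, Rpl28, Rps10 and Rps27 had log2 differences of 0.069, 0.088, 0.038, 0.034 and 0.029, against -0.012 for Rps27l and 0.095 for Rps4x. The 4 X-linked members, Rpl10, Rpl36a, Rpl39 and Rps4x, had a median of 0.096, against 0.0040 over the 569 tested genes of that chromosome, and the groups did not overlap in 3 of them. Xist, expressed from the inactive X chromosome of females, had 2158, 1790 and 2495 CPM in SmadNes, against 1538, 2974 and 2214 CPM in control, so the groups overlapped. Pools of the same name were less alike. The Y-linked gene Kdm5d had 35.6, 50.3 and 32.4 CPM in SmadNes, against 46.9, 19.2 and 38.1 CPM in control. Y-linked Eif2s3y, Uty and Ddx3y had the same sign as Kdm5d in each pair. The part of embryo sex in the members' values was not tested. Chromosome 7 held 14 members, all of them above 0 with a median of 0.044, while its 1328 tested genes had a median of -0.018.

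Genes that work with the ribosomal proteins were read from the same test, and none was called, with or without the block. Of 46 ribosome biogenesis genes, 37 were above 0 and 22 were higher in SmadNes in all 3 pairs, while 3 were lower in all 3, against 13.8% and 14.3% of all genes. Their median log2 difference was 0.047. Ddx21, a nucleolar RNA helicase, averaged 193 ± 6.10 CPM in SmadNes and 179.8 ± 5.90 CPM in control, Heatr1, of the small subunit processome, 104 ± 6.24 CPM in SmadNes and 96.5 ± 3.05 CPM in control, and Polr1a, the largest subunit of RNA polymerase I, 94.2 ± 1.87 CPM in SmadNes and 88.6 ± 4.14 CPM in control (SD, n = 3 each). A list of 20 genes whose mRNAs are known to carry a TOP motif held mostly translation genes, and also Vim, Hnrnpa1 and Nap1l1. Of these 20, 18 were above 0, 7 were higher in all 3 pairs and 0 were lower in all 3, with a median of 0.044. Of all genes tested, 49.8% were above 0. Tpt1, the translationally controlled tumour protein, averaged 1190 ± 24.8 CPM in SmadNes and 1106 ± 54.7 CPM in control, the initiation factor gene Eif3e 169.8 ± 9.61 CPM in SmadNes and 158 ± 2.52 CPM in control, and Naca, of the nascent chain complex, 368 ± 20.6 CPM in SmadNes and 344 ± 7.03 CPM in control (SD, n = 3 each).

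Regulators of TOP mRNAs, transcription factors linked to ribosomal protein promoters and ribosome quality control genes had lower medians than the members (0.051). Of 16 regulators of TOP mRNAs, 10 were above 0 with a median of 0.020. Among them 7 were higher in SmadNes in all 3 pairs and 1 was lower in all 3, against 13.8% and 14.3% of all genes. Those with the smallest p were Cnbp, an RNA-binding protein, at 296 ± 21.2 CPM in SmadNes and 274 ± 11.3 CPM in control, Eif4e at 126 ± 7.76 CPM in SmadNes and 118 ± 6.11 CPM in control, and Rheb at 57.7 ± 1.91 CPM in SmadNes and 55.3 ± 0.729 CPM in control (SD, n = 3 each). Of the 9 tested of 10 transcription factors linked to these promoters, 4 were above 0, with a median of -0.0075, and 2 were higher and 2 lower in all 3 pairs. Sp1, Gabpa and Max, those with the smallest p, had log2 differences of 0.083, 0.065 and -0.051. Of 9 ribosome quality control genes, 4 were above 0, with a median of -0.023, and 2 were higher and 2 lower in all 3 pairs. Gtpbp2, Ltn1 and Zfp598 had log2 differences of -0.092, 0.061 and -0.073.

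A further 7 genes encode ribosomal components or close paralogues outside the symbol rule. Their median log2 difference was 0.024, with 4 above 0. Rack1, a scaffold on the small subunit, averaged 632 ± 9.42 CPM in SmadNes and 606 ± 19.99 CPM in control, Rpl36al 54.3 ± 3.86 CPM in SmadNes and 50.6 ± 2.20 CPM in control, and Rpl7l1 96.3 ± 3.00 CPM in SmadNes and 94.7 ± 1.59 CPM in control (SD, n = 3 each). None passed the test.

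Levels of other cell types are given beside these results, since the pools were sorted by a single marker. Radial glia genes were above 0 in 12 of 14 cases, cortical neuron genes in 5 of 15, Cajal-Retzius neuron genes in 6 of 6, mesenchymal genes in 10 of 10, intermediate progenitor genes in 5 of 9, microglial genes in 7 of 11, endothelial genes in 4 of 8 tested, ventral forebrain genes in 1 of 12 and erythroid genes in 0 of 10 tested. The summed level of the Cajal-Retzius genes was 998 to 1405 CPM in SmadNes and 906 to 1054 CPM in control, that of the ventral forebrain genes 101 to 254 CPM in SmadNes and 108 to 330.0 CPM in control, and that of the erythroid genes 124 to 667 CPM in SmadNes and 117 to 1127 CPM in control. Mesenchymal genes summed to 296 to 1352 CPM in SmadNes and 469 to 1080 CPM in control, microglial genes to 16.2 to 105 CPM in SmadNes and 18.8 to 99.1 CPM in control, and endothelial genes to 21.9 to 26.2 CPM in SmadNes and 19.7 to 26.8 CPM in control. Intermediate progenitor genes summed to 1291 to 1917 CPM in SmadNes and 1372 to 1840 CPM in control. Between these sums the groups overlapped in every list, while within pairs of the same pool name 3 lists had 1 sign. In the SF3, SF4 and SF5_6 pairs, the log2 difference of the sum was 0.41, 0.32 and 0.14 for Cajal-Retzius genes, 0.11, 0.048 and 0.043 for radial glia genes and -0.62, -0.061 and -0.38 for ventral forebrain genes. The mesenchymal sum differed by 0.48, -0.66 and 0.32. None of these genes was at 0 in every library. Their part in the ribosomal protein differences was not tested.

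Pseudogenes of ribosomal proteins can draw reads from their parent genes in the authors' estimation. The table listed 271 of them, and together they held 1.04 to 1.94 counts per 100 member counts in SmadNes and 1.21 to 1.93 in control (1.52 ± 0.451 in SmadNes and 1.51 ± 0.376 in control, SD, n = 3 each). Of the 53 pseudogenes tested, 27 were above 0, with a median log2 difference of 0.0033. Their level was highest in the SF4 libraries of both groups. With the pseudogenes added, the difference in the share of counts between SmadNes and control was 0.0784 percentage points.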

How the data were processed

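Libraries of 3 SmadNes and 3 control pools were made with a stranded KAPA mRNA kit and sequenced as read pairs. The authors aligned these to GRCm38 with STAR 2.5.3a and estimated transcript abundance with RSEM 1.3.0 on GENCODE M15, using its stranded setting, per the labels' protocols. DESeq2 1.18 is listed in the submitters' processing notes. The deposited values are the authors' expected counts per gene, unscaled and already whole. The rounding, and the step from transcripts to genes, are not given in the sources used here. Reads are split by RSEM among near-identical copies, so counts of ribosomal protein genes, their paralogues and pseudogenes are uncertain at that level.

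The expected counts were tested with edgeR 4.0.16 in R 4.3.3 (quasi-likelihood, TMM, filterByExpr, Benjamini-Hochberg over all genes, called below 0.05), with genotype as the term. DESeq2 1.42.0 and limma 3.58.1, other scalings and filters, the pool name as a block and each library left out were the alternatives. Log2 differences within pairs used CPM plus 0.5. Library totals of 32997423 to 40744672 put the limit of a zero count (3 counts) at or below 0.0909 CPM, covering counting error only. Libraries of a group differed by more than sampling noise (chi-square per degree of freedom 10.6 to 43.9). The labels mention pairs of samples, and deviations correlated at 0.590 to 0.805 within a pool name and at no more than 0.0497 between names, so the names pair the samples. Over the members alone these correlations were -0.0012 for SF3, 0.21 for SF4 and 0.41 for SF5_6, and 0.34 between SmadNes SF3 and control SF4. The biological coefficient of variation was 0.198 without the block and 0.0556 with it. Lengths, GC content and coordinates came from GENCODE M21 on the same build, with the shortest transcript of the best principal rank per gene, and promoter windows from RefSeq. Fits were tested on simulated counts with known changes. Without the block, edgeR called 0% of genes changed 1.25-fold and 36% of those changed 2-fold. With the block it called 60% and 92%.

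Members and gene lists were chosen with earlier results of these data known. Genes were named by role (stalk, 5S particle, Rpsa, Rps6, Rps19 and paralogue pairs), by the 6 smallest p-values per direction with 1 sign in all 3 pairs, by the 3 highest and lowest levels per length and pool differences, and by the 3 smallest p-values per further list. Values of some members are not reported here.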

Additional observations from a re-analysis of the deposited data

How the results depend on the processing

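No ribosomal protein gene was called between SmadNes and control under any setting tried, and no scaling or filter changed the sign of a named member. In simulated counts, changes of 1.1-fold were seldom called either. Of 609 values for the 29 named and tested members under the alternatives, 22 had the other sign from the one reported, all with at least 1 library left out, among them values of Rpl41, Rps21, Rpl13a and Rps19. The median log2 difference of the members, 0.051 as reported, was 0.040 with scaling by library total and 0.032 to 0.067 with 1 library left out, lowest without control SF5_6 and highest without SmadNes SF5_6. All genes had a median of -0.011 with scaling by library total. The members above 0 numbered 59 to 77 under the alternatives. The count with groups apart, 28 as reported, was 14 with scaling by library total, 23 with RLE and 31 with the upper quartile, where 1.78%, 2.15% and 2.73% of all genes were so, against 2.39% as reported. Over all genes, those called numbered 0 as reported, 4 with the replicate block, 7 with DESeq2, 13 with DESeq2 and the block, 1 with limma-voom and 8 with limma-voom and the block. With 1 library left out, or a pair left out and the block kept, they numbered 0 to 149, and 149 was reached without the SF5_6 pair. The block changed no other call. The difference in share of counts was 0.0596 to 0.0979 percentage points with 1 library left out. The count of members called between pool names, 13 as reported, was 6 with scaling by library total and 2 to 17 with 1 library left out, where 34.1% and 18.5% to 31.1% of all genes were called. The causes of these shifts were not tested. The 95% intervals of the members' log2 differences reached at most 0.33 upwards without the block and 0.23 with it.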

Other observations

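Some pseudogenes of ribosomal proteins differed between pools far more than any member did. The 4 described here were chosen after their values were seen, as those with the highest ratio of the highest to the lowest library among the 15 pseudogenes with the highest counts. Rps3a2 had 1.65, 76.4 and 44.8 CPM by library total in the SF3, SF4 and SF5_6 libraries of SmadNes, against 22.0, 71.5 and 22.6 CPM in those of control. Rps3a3 had 0.388, 51.3 and 32.2 CPM in SmadNes, against 17.2, 53.8 and 17.2 CPM in control. Rps3a1, a coding gene of the small subunit outside the symbol rule, had 475, 359 and 434 CPM in SmadNes, against 425, 345 and 449 CPM in control. Both SF4 libraries, the highest in both pseudogenes, were the lowest in the coding gene. The sum of all 3 genes was more even, at 477, 487 and 511 CPM in SmadNes, against 464, 470.3 and 489 CPM in control. In every pair of pools this sum was higher in SmadNes, while Rps3a1 alone was lower in SmadNes in the SF5_6 pair. Rpl15-ps2 had 601, 2 and 406 counts in SmadNes, against 500, 8 and 446 counts in control, with both SF4 libraries near 0. Rpl34-ps1 had 237, 599 and 44 counts in SmadNes, against 28, 867 and 656 counts in control, and Rpl34 was the member with the highest coefficient of variation in control.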
